A study of Saccharomyces cerevisiae with 13 samples.

Results

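The genes of glycolysis, alcoholic fermentation and the pentose phosphate pathway were followed across 5 tRNA gene deletion strains of the budding yeast Saccharomyces cerevisiae. The set held 39 genes, listed by name for their step in the pathway and not for how they behaved. On the arrays 38 of them were measured, each by 1 probe set, out of 5446 genes in all. TDH2, a glyceraldehyde-3-phosphate dehydrogenase, had no probe set paired with it alone and was not analysed here.

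Glycolysis breaks glucose down to pyruvate, and fermentation turns pyruvate into ethanol through pyruvate decarboxylase and alcohol dehydrogenase. Baker's yeast does both even with oxygen present when glucose is plentiful, and several steps are run by more than one enzyme. One isoenzyme usually serves growth on glucose and the others serve growth on other carbon sources or under stress. The pentose phosphate pathway branches off at glucose-6-phosphate. Its oxidative branch makes NADPH, and its non-oxidative branch interconverts sugars and supplies ribose-5-phosphate for nucleotides.

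The deletion strains tM(CAU), tR(CCU)J and tL(GAG)G, which the study called its SC group (the lone genes of 2 tRNA families and an initiator gene), had 2 arrays each, as had tR(UCU)M2 and tH(GUG)G1, its MC group of multi-copy families. Wild type (WT) had 3 arrays. All strains were haploid, of the background Y5565 (MATα, with ura3Δ0, leu2Δ0 and lyp1Δ, with can1Δ::MFA1pr-HIS3 and also with mfα1Δ::MFα1pr-LEU2 in the study's strain description), and in the deletion strains a hygromycin B resistance cassette replaced the tRNA gene. By the study's methods its WT control carried the same cassette, placed upstream of tL(CAA)L3 with no tRNA gene removed. The cells were harvested in mid log phase from rich glucose medium (YPD) at 30°C. The label tM(CAU) names no gene copy, while the study lists the initiator methionine tRNA gene tiM(CAU)C, and how many clones stood behind a strain is not given in the sources used here. Arrays of a strain are called biological replicates, and nothing says whether they came from separate cultures, so p-values measure the spread between these arrays.

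Values are log2 of the deposited probe-set signal. The 2% trimmed mean signal was 500.2 to 500.3 on every array, and background, the level under which 95% of the fission yeast (S. pombe) probe sets lay, was a signal of 12.9 to 21.5. All 38 genes lay above it on all 13 arrays. The MATα genes MF(ALPHA)2, STE3 and SAG1 were bright on every array, with 10.16 as the lowest of their values, and the deleted URA3 and LYP1 were below background on all 13. Levels of different genes come from different probes and are not compared here. Many of these genes have close relatives (TDH1 and TDH3, ENO1 and ENO2, ADH1 and ADH2, HXK1 and HXK2), and how far the probes tell them apart was not tested.

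**Figure D1:**
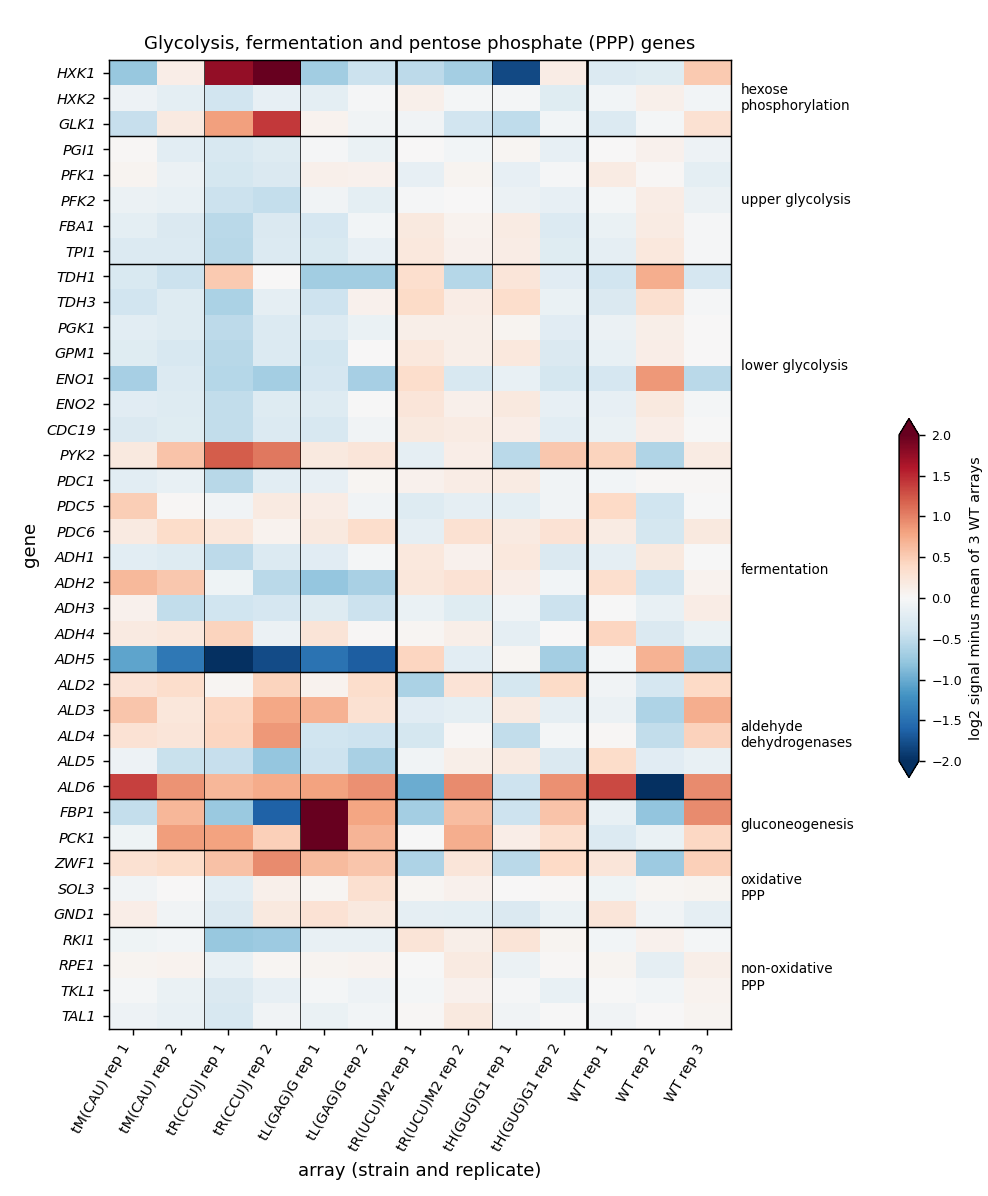
Each cell is the log2 signal of 1 gene (rows, grouped by step) on 1 array (columns) minus the mean of the 3 WT arrays. ADH5 was low on all 6 SC arrays, HXK1 and GLK1 were high on both tR(CCU)J arrays, and ALD6 was low on WT replicate 2 and on the first arrays of tR(UCU)M2 and tH(GUG)G1.

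All 13 arrays entered a single limma fit, and below a gene is said to be called if its p, adjusted by Benjamini-Hochberg over all 5446 genes, was under 0.05. In tR(CCU)J, 5 of the 38 genes were called against WT, or 13.2%, beside 8.56% of all genes. HXK1 and GLK1 were higher and PFK2, ADH5 and RKI1 were lower. By direction that is 5.26% of the 38 higher beside 6.63% of all genes, and 7.89% lower beside 1.93% of all genes. No gene of the set was called in the other 4 strains, where 0.0367% of all genes were called in tM(CAU), 0.0551% in tL(GAG)G, and 0.0% in tR(UCU)M2 and in tH(GUG)G1. At an unadjusted p under 0.05 the fit gave 18 of the 38 in tR(CCU)J, beside 31.7% of all genes, 2 in tM(CAU), beside 2.17%, and 5 in tL(GAG)G, beside 7.93%. It gave 0 in each of the MC strains, beside 1.32% in tR(UCU)M2 and 1.74% in tH(GUG)G1. Both tR(CCU)J arrays lay above all WT arrays for 5 of the 38 genes, beside 31.6% of all genes, and below all WT arrays for 18 of the 38, beside 12.5%. All 5 comparisons share the 3 WT arrays.

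Both genes called higher in tR(CCU)J act in hexose phosphorylation, the entry step of glycolysis. Their share of the set, 5.26%, was not above the 6.63% of all genes called higher. HXK1, a hexokinase that is kept low on glucose, had 10.01 and 10.88 on the tR(CCU)J arrays, against 7.97, 7.999 and 8.77 in WT. It had 7.48 and 8.38 in tM(CAU), 7.55 and 7.81 in tL(GAG)G, 7.72 and 7.57 in tR(UCU)M2, and 6.45 and 8.40 in tH(GUG)G1. Both tR(CCU)J arrays lay above all the others, and the 2 arrays of tH(GUG)G1 were nearly as far apart as tR(CCU)J was from WT. The difference from WT was 2.20 ± 0.53 (SE) on the log2 scale, 4.59-fold, with an adjusted p of 0.0374.

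GLK1, the glucokinase, had 9.73 and 10.32 in tR(CCU)J, against 8.63, 8.87 and 9.22 in WT. On the other 8 deletion arrays it lay between 8.40 and 9.08, so the tR(CCU)J arrays again stood above every other array. The difference from WT was 1.12 ± 0.26 (SE), 2.17-fold, with an adjusted p of 0.0365. HXK2, the hexokinase that predominates on glucose, had 12.18 and 12.40 in tR(CCU)J, against 12.52, 12.67 and 12.52 in WT, and was not called (adjusted p = 0.158). EMI2, listed with the other enzymes of these routes, had 8.55 and 8.92, against 7.996, 9.31 and 8.77 in WT. Its difference of 0.04 was not called. After quantile normalization the differences of HXK1 and GLK1 were 2.07 and 0.97 with adjusted p of 0.0521 and 0.0733, and after centring each array on its median 1.997 and 0.92 with 0.0536 and 0.0704, so both calls were lost there by a small margin. They were also lost without either tR(CCU)J array, WT replicate 1 or 2 or either tL(GAG)G array, and that of HXK1 without either array of tM(CAU) or tR(UCU)M2. Over 21 alternatives the adjusted p ran from 0.0162 to 0.124 for HXK1 and from 0.0165 to 0.144 for GLK1.

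The same pair of genes stood apart in tR(CCU)J from the 2 other SC strains, a comparison chosen after the values were seen. Against the mean of tM(CAU) and tL(GAG)G, HXK1 was 2.64 ± 0.50 (SE) higher (adjusted p = 0.0250) and GLK1 1.19 ± 0.25 higher (adjusted p = 0.0312). RKI1 differed by -0.64 ± 0.10 (adjusted p = 0.0160), and these were the 3 called of 38, or 7.89%, beside 4.87% of all genes. None of the 3 was called without tR(CCU)J replicate 1, either tM(CAU) array or tL(GAG)G replicate 2. The summed signal of the stress genes HSP12, HSP26, CTT1 and SPI1 was also high, with 2456 and 3321 on the tR(CCU)J arrays, against 852 to 1541 in WT. HSP12, a membrane-associated stress protein, had 10.78 and 10.75 in tR(CCU)J, against 8.59, 8.51 and 9.83 in WT, a difference of 1.79 with an adjusted p of 0.0667. HSP26 differed by 1.54, CTT1 by 0.24 and SPI1 by 0.04, and SPI1 lay within the WT range on both arrays. None of the 4 was called, and their part in the HXK1 and GLK1 differences was not tested.

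**Figure D2:**
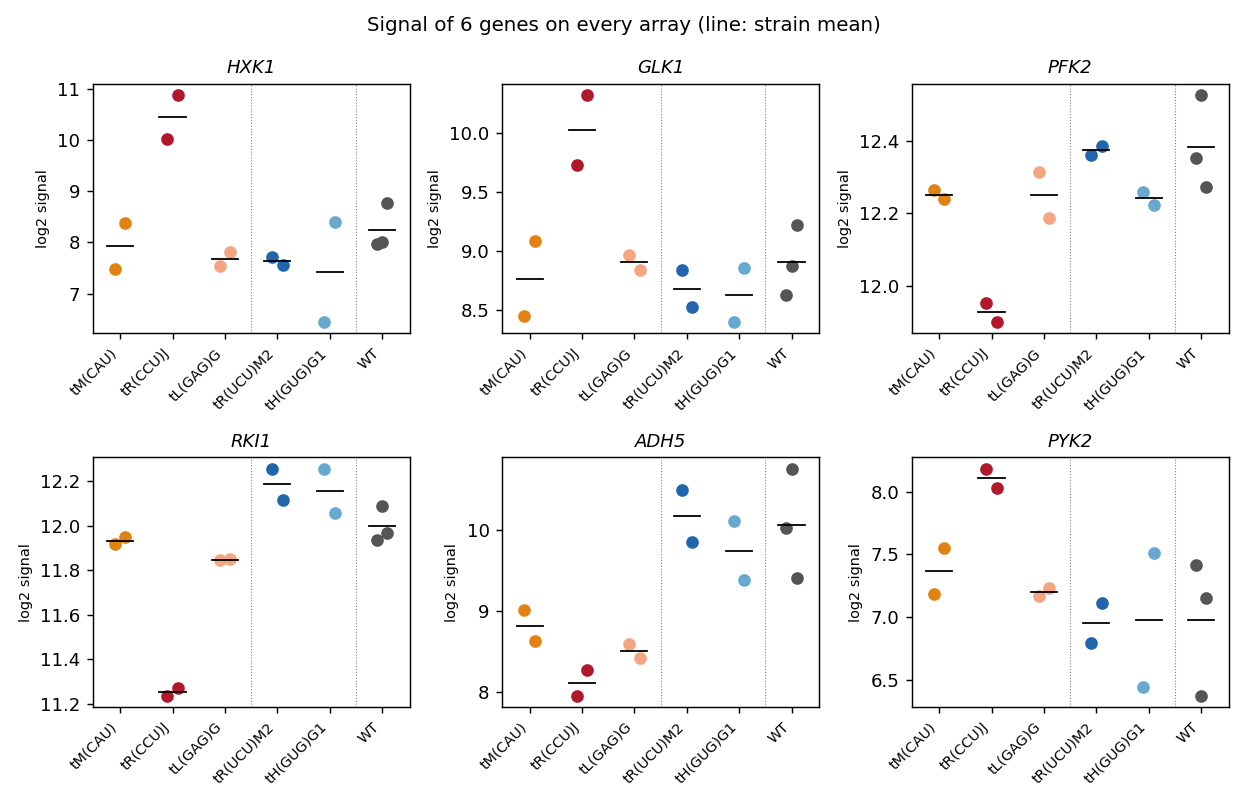
Each point is the log2 signal of 1 array and each line the mean of its strain, for the 5 genes called in tR(CCU)J minus WT and for PYK2, which missed the threshold with the next smallest p among those higher in that strain. Dotted lines part the SC strains, the MC strains and WT. ADH5 lay at 7.96 to 9.01 on the 6 SC arrays, below every MC and WT array.

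In upper glycolysis, from glucose-6-phosphate to the triose phosphates, all 5 genes had a negative difference in tR(CCU)J, with a median of -0.41, and 1 was called. PFK2, the beta subunit of phosphofructokinase, had 11.95 and 11.90 in tR(CCU)J, against 12.35, 12.53 and 12.27 in WT. All 8 other deletion arrays lay between 12.19 and 12.38, so only the tR(CCU)J arrays were outside the range of the rest. The difference from WT was -0.46 ± 0.11 (SE), 1.37-fold lower, with an adjusted p of 0.0374. PFK1, the alpha subunit of the same enzyme, had 11.56 and 11.62 in tR(CCU)J, against 12.07, 11.93 and 11.71 in WT, and missed the threshold (difference -0.32, adjusted p = 0.139). After quantile normalization the PFK2 difference was -0.24 with an adjusted p of 0.214, and the call was lost on leaving out the same single arrays as for HXK1.

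In lower glycolysis, from glyceraldehyde-3-phosphate to pyruvate, 6 of 8 genes had a negative difference in tR(CCU)J (median -0.39) and none was called, while 5 of the 8 had an unadjusted p under 0.05. PGK1, phosphoglycerate kinase, had 12.61 and 12.86 in tR(CCU)J, against 13.02, 13.24 and 13.13 in WT (difference -0.39, adjusted p = 0.0835). CDC19, the main pyruvate kinase on glucose, had 12.63 and 12.86, against 12.998, 13.27 and 13.11 in WT (difference -0.38, adjusted p = 0.111). Both genes lay below WT without overlap. PYK2, the second pyruvate kinase, went the other way, with 8.18 and 8.03 in tR(CCU)J, against 7.42, 6.37 and 7.15 in WT. Its difference of 1.13 ± 0.35 (SE) missed the threshold (adjusted p = 0.0698).

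The small negative differences of the bright enzymes were shared by other genes as bright. The 15 genes of the set with a mean log2 signal over 12 were HXK2, PGI1, PFK2, FBA1, TPI1, TDH3, PGK1, GPM1, ENO2, CDC19, PDC1, ADH1, ADH3, TKL1 and TAL1. As deposited, all 15 were lower in tR(CCU)J than in WT with a median of -0.38, but all 333 genes of the array over the same level had a median of -0.37, and after quantile normalization the 15 had 5 positive and 10 negative differences with a median of -0.01. The same held in tM(CAU), with a median of -0.23 for the 15 beside -0.18 for the 333, and in tL(GAG)G, with -0.13 beside -0.18. After quantile normalization the medians of the 15 were -0.03 and 0.02 in these strains. The median of all genes in tR(CCU)J minus WT was 0.17 as deposited. The highest signal on an array was 8291 and 9914 in tR(CCU)J, against 10496 to 14464 in WT.

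**Figure D3:**
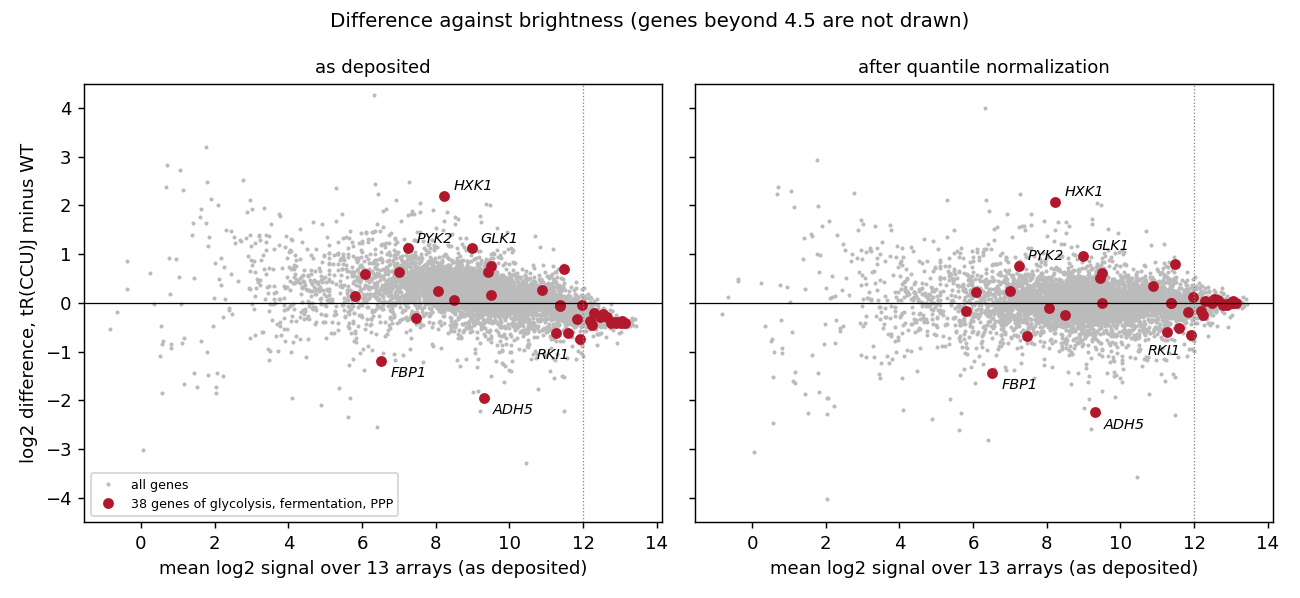
Each point is a gene, with its mean log2 signal over the 13 arrays on the horizontal axis and its log2 difference in tR(CCU)J minus WT on the vertical axis, as deposited (left) and after quantile normalization (right). The 15 bright genes of the set (right of the dotted line) sit at a median of -0.38 within the cloud of all bright genes on the left and at -0.01 on the right, while HXK1, GLK1, ADH5 and RKI1 keep their direction in both.

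Among the fermentation genes, ADH5 differed most. ADH5, a minor alcohol dehydrogenase, had 7.96 and 8.28 in tR(CCU)J, against 10.02, 10.76 and 9.41 in WT. The difference was -1.95 ± 0.37 (SE), 3.86-fold lower, with an adjusted p of 0.0222. It had 9.01 and 8.64 in tM(CAU) and 8.59 and 8.42 in tL(GAG)G, so all 6 SC arrays lay below every WT array. In the MC strains ADH5 had 10.50 and 9.86 in tR(UCU)M2 and 10.11 and 9.38 in tH(GUG)G1, within or just under the WT range.

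The differences from WT in the 2 other SC strains were -1.24 ± 0.37 in tM(CAU) and -1.56 ± 0.37 in tL(GAG)G (SE), and neither was called (adjusted p = 0.987 and 0.295). ADH5 also varied among the WT arrays by more than 1 log2 unit. Each array was also set against the WT array it correlated best with over genes above background on average. By this measure each SC array was lower, by values that ran from -2.07 to -0.77, while the 4 MC arrays gave -0.65 to 0.45. In tR(CCU)J minus the 2 other SC strains the ADH5 difference was -0.55 and was not called, so no difference within the SC group was shown for this gene.

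The other alcohol dehydrogenases moved little or in differing ways. ADH1, which makes most of the ethanol, and ADH3, its mitochondrial relative, were among the bright genes above, and ADH4 differed from WT by -0.09 to 0.20 in the 5 strains. ADH3 had a lower mean than WT (12.38) in all 5 strains, at 12.01 to 12.20, and was not called in any. It had 12.24 and 12.15 in tR(UCU)M2 and 12.32 and 11.95 in tH(GUG)G1, against 12.38, 12.235 and 12.53 in WT. From the nearest WT array its second arrays differed by -0.63 to -0.38 and its first arrays by -0.40 to 0.09. ADH2, which consumes ethanol and is repressed by glucose, had 8.13 and 8.02 in tM(CAU), 7.39 and 6.93 in tR(CCU)J and 6.70 and 6.83 in tL(GAG)G, against 7.81, 7.07 and 7.54 in WT. The tM(CAU) arrays were above WT and the tL(GAG)G arrays below it, with differences of 0.60 and -0.71 that were not called (adjusted p = 0.987 and 0.412). The pyruvate decarboxylases PDC1, PDC5 and PDC6 were not called in any strain, and their differences from WT ran from -0.38 for PDC1 in tR(CCU)J to 0.28 for PDC6 in tM(CAU).

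In the pentose phosphate pathway the called gene was RKI1, ribose-5-phosphate isomerase, which makes ribose-5-phosphate in the non-oxidative branch. RKI1 had 11.24 and 11.27 in tR(CCU)J, against 11.94, 12.09 and 11.97 in WT. The other 8 deletion arrays lay between 11.85 and 12.26, so tR(CCU)J was set apart from all of them. The difference from WT was -0.74 ± 0.11 (SE), 1.68-fold lower, with an adjusted p of 0.0119, and after quantile normalization it was -0.66 with an adjusted p of 0.0083. Without tR(CCU)J replicate 1 none of the 38 genes was called in tR(CCU)J, RKI1 and ADH5 included.

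The 3 other genes of the non-oxidative branch, RPE1 (the epimerase), TKL1 (transketolase) and TAL1 (transaldolase), had differences of -0.06, -0.23 and -0.20 in tR(CCU)J, and none was called. No gene of the oxidative branch was called either. ZWF1, glucose-6-phosphate dehydrogenase and the entry into the pathway, had 9.86 and 10.22 in tR(CCU)J, against 9.52, 8.55 and 9.76 in WT, a difference of 0.76 that was not called (adjusted p = 0.216). Set against the nearest WT array, its tR(CCU)J arrays were 0.34 and 0.46 higher. SOL3, the lactonase, and GND1, the second NADPH-producing dehydrogenase, differed from WT by -0.05 and -0.04. In tL(GAG)G all 3 oxidative genes had a positive difference, from 0.18 to 0.59, and none was called. Against the nearest WT array the tL(GAG)G arrays differed less for ZWF1, by 0.38 and 0.07. By that measure SOL3 differed by 0.13 and 0.27 and GND1 by 0.04 and 0.38.

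ZWF1 was 1 of several genes whose WT arrays lay far apart. ALD6, the main cytosolic acetaldehyde dehydrogenase and another source of NADPH, had 12.35, 8.77 and 11.98 on the WT arrays, a range of more than 3 log2 units. It had 10.04 and 11.98 in tR(UCU)M2 and 10.62 and 11.95 in tH(GUG)G1, and 11.70 to 12.41 on the 6 SC arrays. The low values fell on WT replicate 2 and on the first arrays of the 2 MC strains. Over genes above background on average, these first arrays correlated best with that WT array. ZWF1 was low on the same 3 arrays, at 8.55 to 8.74 beside 9.52 to 10.22 on the other 10.

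ENO1 and TDH1 ran the other way on those 3 arrays. ENO1, the enolase of growth on carbon sources other than glucose, had 11.72 to 12.73 there and 11.19 to 11.59 on the other 10. TDH1, a glyceraldehyde-3-phosphate dehydrogenase, had 11.28 to 11.76 there and 10.33 to 11.56 elsewhere, where tR(CCU)J replicate 1 was the highest. The differences of these 4 genes between strains therefore depended on which WT array stood beside them: ALD6 was 1.13 above WT in tM(CAU) over all 3 WT arrays but its 2 arrays were 0.06 and -0.05 from the nearest WT array. The study compared arrays within batches, the labels give no batch, and the part of a batch in this split was not tested.

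**Figure D4:**
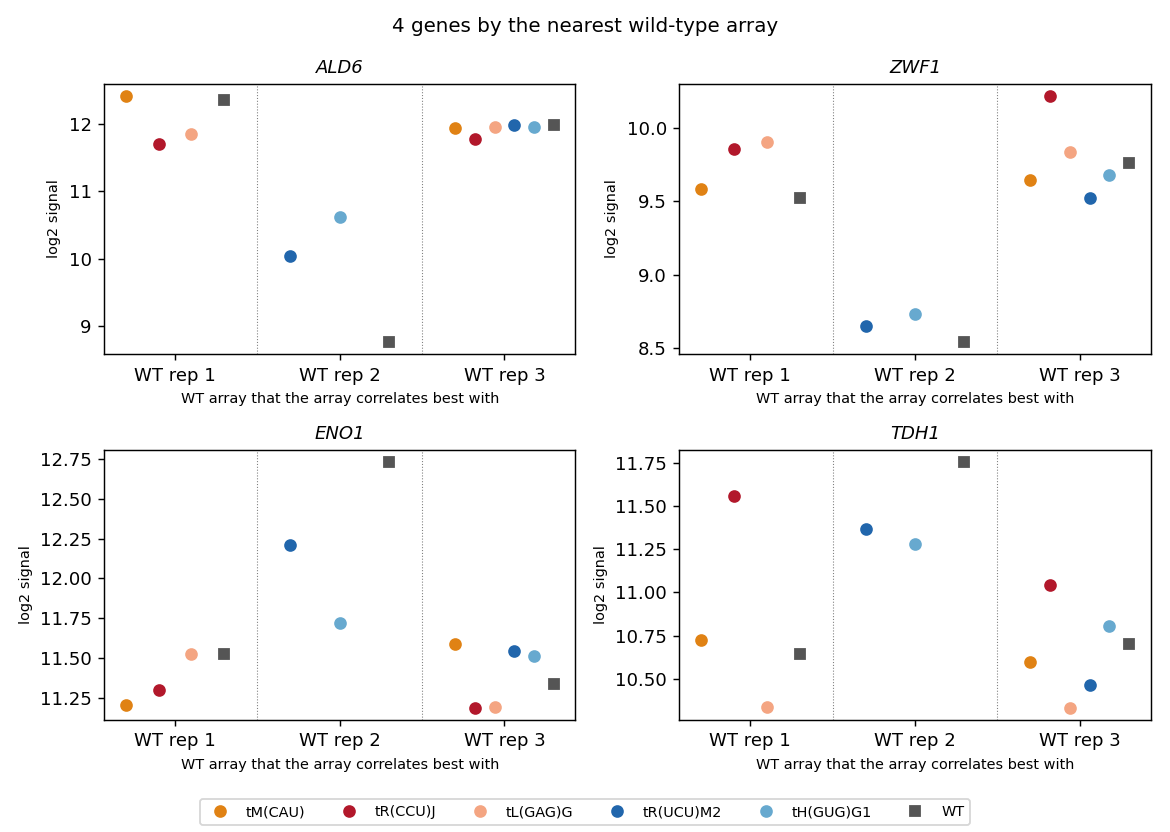
Each point is the log2 signal of 1 array, with squares for the WT arrays themselves. Arrays are placed by the WT array they correlated best with over genes above background on average. On the 3 arrays of the WT replicate 2 set, ALD6 and ZWF1 lay below and ENO1 above all other arrays.

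The remaining aldehyde dehydrogenases were not called in any strain. ALD5, a mitochondrial enzyme, had 11.01 and 10.70 in tR(CCU)J and 11.07 and 10.83 in tL(GAG)G, against 11.85, 11.26 and 11.34 in WT, with differences of -0.62 and -0.53 (adjusted p = 0.0982 and 0.602). ALD4, the main mitochondrial form, had 9.85 and 10.28 in tR(CCU)J, against 9.45, 8.94 and 9.88 in WT. ALD2 and ALD3, a stress-induced pair of neighbouring genes, had differences from -0.21 to 0.59 over the 5 strains. With the replicate number as a block, ALD3 passed in tR(CCU)J (difference 0.96, adjusted p = 0.0426), but the numbers did not pair the WT arrays. Against the nearest WT array its 2 arrays differed by 0.53 and 0.04.

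The gluconeogenic genes FBP1 (fructose-1,6-bisphosphatase) and PCK1 (phosphoenolpyruvate carboxykinase), which glucose represses, stood high in tL(GAG)G without being called. FBP1 had 9.16 and 7.20 in tL(GAG)G, against 6.25, 5.62 and 7.35 in WT, and PCK1 had 8.65 and 7.22, against 6.27, 6.41 and 6.95 in WT. The first tL(GAG)G array carried most of this, and for FBP1 the second fell within the WT range. The differences were 1.77 ± 0.71 and 1.39 ± 0.43 (SE), with adjusted p of 0.601 and 0.425. In tR(CCU)J the pair split, with 5.67 and 4.79 for FBP1 and 7.34 and 7.02 for PCK1.

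The contrast of the 2 groups asked whether loss of an SC tRNA gene shifts these genes against loss of an MC tRNA gene. The first SC arrays correlated best with WT replicate 1 and the first MC arrays with WT replicate 2, while all second arrays correlated best with WT replicate 3. On the first arrays a group difference therefore cannot be told apart from this split of the arrays. In SC minus MC, over 6 and 4 arrays, RKI1 was called, 1 of the 38 or 2.63%, beside 0.22% of all genes, and at an unadjusted p under 0.05 there were 18 of the 38 beside 29.7% of all genes. On the SC arrays RKI1 had 11.24 to 11.95 (median 11.85), against 12.06 to 12.26 on the MC arrays (median 12.19), a difference of -0.49 ± 0.08 (SE) with an adjusted p of 0.0446. The 2 groups did not overlap, but without the strain tR(CCU)J the difference was -0.28 and no gene of the set was called (adjusted p = 0.304 for RKI1). The RKI1 call was kept when WT replicate 2, tR(CCU)J replicate 2 or tH(GUG)G1 replicate 2 was left out and lost without any other single array. It was also lost with strain as a random block (adjusted p = 0.118), with the nearest WT array as a block (0.0509), within replicate 1 (0.188), within replicate 2 (0.729) and in a fit of the SC and MC arrays alone (0.0582). The 6 and 4 arrays stand for 3 and 2 strains. The WT arrays, at 11.94 to 12.09, overlapped both groups.

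ADH5 had the larger difference between the groups, with 7.96 to 9.01 on the SC arrays (median 8.51), against 9.38 to 10.50 on the MC arrays (median 9.98). The difference was -1.48 ± 0.26 (SE), 2.79-fold lower, and just missed the threshold (adjusted p = 0.0505). With the replicate number as a block it passed (adjusted p = 0.0415), as it did after quantile normalization (-1.61, adjusted p = 0.0467). It did not pass with strain as a random block (adjusted p = 0.0963), with the nearest WT array as a block (-1.13, 0.0522), within replicate 1 (0.124) or within replicate 2 (0.363). Without tR(CCU)J it was -1.30 with an adjusted p of 0.263. ADH5 and RKI1 were the 2 of 38 genes whose SC arrays all lay below the MC arrays, beside 2.15% of all genes, and ALD3 the 1 whose SC arrays all lay above, beside 5.47%. Its values were 6.11 to 6.66 in SC, against 5.66 to 6.07 in MC (difference 0.60, adjusted p = 0.126).

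The 15 bright genes of the set all had a lower mean in SC than in MC as deposited, with a median difference of -0.29, but the 333 bright genes had the same median of -0.29 and after quantile normalization 7 of the 15 were positive and 8 negative. Of these 15 none was called, and CDC19 had the smallest p, with 12.63 to 13.06 in SC, against 12.92 to 13.32 in MC (difference -0.35, adjusted p = 0.0774). The median difference of all genes was 0.11. The largest differences from WT in the MC strains were those of HXK1, with -0.60 in tR(UCU)M2 and -0.82 in tH(GUG)G1 (adjusted p = 0.9992 and 0.9999).

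Isoenzymes were compared by the log2 ratio of 2 genes on the same array, and that ratio was then set between SC and MC. The test was an exact permutation over the 210 splits of 10 arrays, two-sided, with 0.00476 as the smallest p it can give. It treats the 2 arrays of a strain as independent. With the 5 strain means in their place the smallest p possible is 0.1, and the smallest adjusted p was 0.267. None of the 16 pairs passed after Benjamini-Hochberg adjustment over the 16. ADH5 to ADH1 was the pair with the smallest p: its log2 ratio in SC minus MC was -1.17 ± 0.18 (SE), without overlap (permutation p = 0.00476, adjusted p = 0.0762). In the pair ALD5 to ALD6 the difference was -1.25 ± 0.53 (adjusted p = 0.0762), with ALD6 low on the 2 first MC arrays as above. PDC5 to PDC1 was 0.59 ± 0.14 higher in SC and PDC6 to PDC1 0.38 ± 0.15 higher (adjusted p = 0.0762 each), and after quantile normalization the second of these changed sign (-0.09). PDC5 was low on the WT replicate 2 set of arrays, which holds the first MC arrays, at 8.10 to 8.30 beside 8.31 to 8.99 elsewhere. Set against the nearest WT array, PDC5 differed by -0.47 to 0.18 on the SC arrays and by -0.18 to 0.20 on the MC arrays.

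PYK2 to CDC19 was 0.94 ± 0.38 (SE) higher in SC with an adjusted p of 0.114. By strain its difference from WT was 1.51 in tR(CCU)J, 0.65 in tM(CAU) and 0.41 in tL(GAG)G, beside -0.21 in tR(UCU)M2 and 0.04 in tH(GUG)G1. PYK2 was low on the 3 arrays of the WT replicate 2 set, at 6.37 to 6.79 beside 7.11 to 8.18 on the other 10. Without WT replicate 2 the ratio differed from WT by 1.14 in tR(CCU)J, 0.28 in tM(CAU), 0.04 in tL(GAG)G, -0.58 in tR(UCU)M2 and -0.34 in tH(GUG)G1. HXK1 to HXK2 was 1.28 ± 0.75 higher in SC (adjusted p = 0.270), and the strains differed, since in tR(CCU)J the difference from WT was 2.48, while tM(CAU) and tL(GAG)G had -0.16 and -0.46. GLK1 to HXK2 was also highest in tR(CCU)J, with 1.399 in tR(CCU)J, 0.01 in tM(CAU) and 0.10 in tL(GAG)G.

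ADH4 to ADH1 was 0.48 ± 0.19 (SE) higher in SC (adjusted p = 0.114). ADH1 had means of 12.64 in SC and 12.95 in MC, and ADH4 of 9.59 and 9.42. Outside the pairs with ALD6, the second gene of every pair was among the bright genes above, whose means were all lower in SC. ADH4 was also low on the WT replicate 2 set of arrays, at 9.13 to 9.47 beside 9.29 to 9.87 elsewhere. TDH1 to TDH3 differed by 0.27 ± 0.31 (SE) and ENO1 to ENO2 by -0.07 ± 0.16, with adjusted p of 0.627 and 0.731. ADH2 to ADH1 differed by 0.02 ± 0.28, with values of 0.83 in tM(CAU) and -0.58 in tL(GAG)G against WT. For the subunits PFK1 to PFK2 the difference was 0.15 ± 0.07 (adjusted p = 0.1197). These p-values do not show that the ratios were equal.

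**Figure D5:**
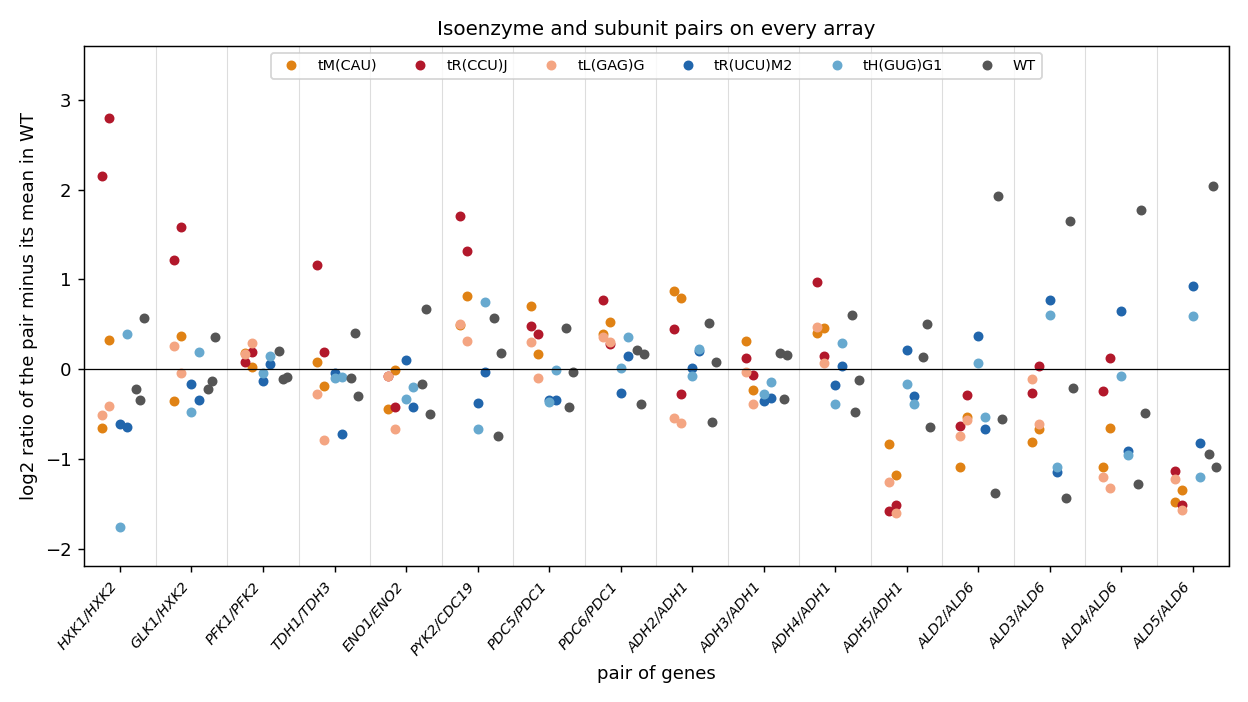
Each point is the log2 ratio of a pair of genes on 1 array minus the mean of that ratio in WT, with SC arrays at the left, MC arrays in the middle and WT at the right of each column. ADH5/ADH1 was low on all 6 SC arrays, and HXK1/HXK2 and PYK2/CDC19 were high in tR(CCU)J.

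Of 20 other enzymes of the same routes, 3 were called in tR(CCU)J minus WT, beside 8.56% of all genes, and none in the other strains or in SC minus MC. PFK26, a 6-phosphofructo-2-kinase that makes the activator fructose-2,6-bisphosphate, had 8.20 and 8.03 in tR(CCU)J, against 7.19, 7.42 and 7.29 in WT (difference 0.82 ± 0.15, adjusted p = 0.0189). PGM2, the main phosphoglucomutase, had 7.70 and 8.31, against 6.58, 6.52 and 6.99 in WT (difference 1.31 ± 0.26, adjusted p = 0.0258). Neither overlapped WT. GPP1, a glycerol-3-phosphate phosphatase, was lower, with 11.85 and 11.96 in tR(CCU)J, against 12.44, 12.69 and 12.49 in WT (difference -0.63 ± 0.14, adjusted p = 0.0309). None of the 3 was called without tR(CCU)J replicate 1. The call of PGM2 was also lost without tR(CCU)J replicate 2 or WT replicate 1 or 2, and that of GPP1 without tR(CCU)J replicate 2, WT replicate 2 or 3 or either tM(CAU) array, and with the replicate block. After quantile normalization neither PFK26 nor PGM2 was called.

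GPP2, the osmotically induced relative of GPP1, was not called against WT in any strain. It was 1.09 higher in tR(CCU)J than in the 2 other SC strains (adjusted p = 0.0337), a call lost without any 1 of these 6 arrays, where tL(GAG)G had 8.46 and 9.02, against 9.96, 9.57 and 10.03 in WT. None of 9 regulators, GCR1, GCR2, RAP1, TYE7, MIG1, SNF1, ADR1, CAT8 and STB5, was called in any comparison. ADR1, an activator of glucose-repressed genes, came nearest, with 7.55 and 6.46 in tR(CCU)J, against 5.31, 5.83 and 5.45 in WT (difference 1.47, adjusted p = 0.0728). In SC minus MC the smallest adjusted p among these enzymes and regulators was 0.0557, for PFK26 and GPP1.

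Marker genes also differed in tR(CCU)J. Of 8 glucose-repressed genes none was called higher in tR(CCU)J than in WT, and JEN1, the lactate transporter, was called lower, with 5.30 and 4.38, against 5.99, 6.41 and 6.24 in WT (difference -1.37, adjusted p = 0.0416). Of 3 sporulation genes IME2 was called higher (1.05, adjusted p = 0.0174). The summed signal of the 3 MATα genes was 5348 and 8115 in tR(CCU)J, against 8315 to 15411 in WT. That of 6 MATa genes was 280 to 447, against 246 to 288 in WT, with no gene of either list called against WT. The MATa sum was not particular to tR(CCU)J, with 406 to 439 in tM(CAU), 299 to 301 in tL(GAG)G, 267 to 356 in tR(UCU)M2 and 240 to 279 in tH(GUG)G1. LEU2, which the strains carry as a marker in place of mfα1, was called lower (-0.81, adjusted p = 0.0252). With a mean log2 signal of 12.92 it was as bright as the bright genes above, and after quantile normalization its difference was -0.50. The JEN1 call was lost without 9 of the 13 arrays in turn and with the replicate block, and the calls of IME2 and LEU2 without tR(CCU)J replicate 1, with LEU2 also lost without WT replicate 2. The part of these shifts in the metabolic genes was not tested.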

How the data were processed

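Yeast RNA was measured on 13 Affymetrix yeast 2.0 arrays (3 of WT, 2 of each of 5 deletion strains). The authors deposited linear intensities, 1 per probe set. The study's methods name RMA background adjustment and quantile normalization, and the submitters' processing notes name GCRMA without a version. The deposited intensities share a 2% trimmed mean but not their quantiles, so how they were summarized is not settled, and they were used as deposited after taking log2 with no offset.

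Of 10928 probe sets, 5495 are paired with 1 protein-coding gene in GEO's platform annotation, with names updated through RefSeq, and they measure 5446 genes. The brightest probe set stood for each of 47 genes with several. Precision is limited by the number of arrays.

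Differences were fitted with limma 3.58.1 in R 4.3.3, 1 mean per strain over all 13 arrays with a constant prior, and adjusted by Benjamini-Hochberg over 5446 genes. A strain's spread is assumed like that of the others. Isoenzyme ratios were compared by exact permutation with Python 3.11.15. Every gene of the set called in a comparison was named with its array values or their range. Up to 3 more in each direction were picked by smallest p, and not all of these are given with array values. Of the other pathway genes, those called or else those with the smallest p were picked. The members, lists and comparisons were chosen with earlier results of these data known.

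Same-numbered arrays of different deletion strains deviated together from their strain means, with r = 0.125 to 0.672 in all 10 pairs over the 3992 genes used. In the 6 SC and MC pairs r was 0.125 to 0.369. With 2 arrays a strain, both numbers give the same r. The same check against WT gave r from -0.737 to 0.542. The nearest WT array was found over the genes with a mean log2 signal above the mean background. The first SC arrays correlated best with WT replicate 1 and the first MC arrays with WT replicate 2. Number 1 was therefore not 1 set of arrays across the groups. The labels do not say what a number stands for, and the replicate block rests on this check alone. Alternatives were this block, the nearest WT array as a block, quantile normalization, median centring, a filter on dim genes, probe sets averaged per gene, a trended robust prior, the compared arrays alone, strain as a random block and each array left out. The comparison of tR(CCU)J with the 2 other SC strains, SC minus MC without tR(CCU)J, the differences from the nearest WT array the split at a log2 signal of 12 and the ratios without WT replicate 2 were added after the data were seen.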

Additional observations from a re-analysis of the deposited data

Results flagged for a closer look

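In 7 of 76 groups tested (the 38 genes on the 6 SC and on the 4 MC arrays), 1 array lay far from the rest by Dixon's test at 95%. Chance gives this in about 1 in 20 if the arrays of a group are of 1 kind. The groups here mix arrays of different strains, and the genes share the same arrays, so that rate is no measure for them. For 4 genes this was tR(CCU)J replicate 1, the lowest SC array for TPI1 (12.70), PGK1 (12.61), RPE1 (11.21) and TAL1 (12.04). ALD6 was highest in tM(CAU) replicate 1 (12.41) among the SC arrays. On the MC arrays CDC19 was lowest in tH(GUG)G1 replicate 2 (12.92) and ALD3 highest in tH(GUG)G1 replicate 1 (6.07).

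The RKI1 difference was called between the SC and MC groups (-0.49). In tR(CCU)J minus the 2 other SC strains, the differences of HXK1 (2.64), GLK1 (1.19) and RKI1 (-0.64) were called. That comparison was chosen after the values were seen, and none of the 3 calls was kept without tR(CCU)J replicate 1.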

How the results depend on the processing

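In tR(CCU)J minus WT, 5 of the 38 genes were called as deposited. There were 9 with the nearest WT array as a block, 3 after median centring, 2 after quantile normalization (ADH5 and RKI1) and 0 in a fit of the compared arrays alone. Leaving out 1 array gave 0 to 6. It was 0 without tR(CCU)J replicate 1, 2 without WT replicate 1 or 2, tR(CCU)J replicate 2 or either tL(GAG)G array, and 3 without either array of tM(CAU) or tR(UCU)M2. ADH5 and RKI1 were each called in 19 of 21 alternatives, GLK1 in 12, PFK2 in 9 and HXK1 in 8. Over all genes the split in this comparison was 361 higher and 105 lower as deposited, 75 and 153 after median centring, and 94 and 157 after quantile normalization.

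In SC minus MC the count was 1 as deposited, 2 (ADH5 and RKI1) with the replicate block, after median centring, after quantile normalization and with dim genes left out, and 3 with the trended robust prior. It was 0 with the nearest WT array as a block, within replicate 1, within replicate 2, with strain as a random block and without tR(CCU)J. Leaving out 1 array gave 0 to 10, with 10 without tH(GUG)G1 replicate 2, 2 without WT replicate 2 or tR(CCU)J replicate 2, and 0 without WT replicate 1, tR(CCU)J replicate 1, tH(GUG)G1 replicate 1 or any array of tM(CAU), tL(GAG)G or tR(UCU)M2. Over all genes 9 were higher and 3 lower as deposited, 18 and 45 after median centring, and 14 and 21 after quantile normalization.

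In tR(CCU)J minus the 2 other SC strains the count was 3, with 8 under the nearest WT block and 0 to 3 leaving out 1 array: 0 without tR(CCU)J replicate 1, either tM(CAU) array or tL(GAG)G replicate 2, and 1 without tR(CCU)J replicate 2 or tL(GAG)G replicate 1. The counts of the 4 other strains were 0 in every alternative. The replicate block gave 6 in tR(CCU)J minus WT, adding ALD3 to the 5, although the numbers do not pair the WT arrays, and beside ADH5 in SC minus MC it changed no other call among the 38.

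Signs turned for PGK1 in tM(CAU) minus WT after quantile normalization (0.0034) and for HXK1 in tH(GUG)G1 minus WT, which ran from -1.80 to 0.15 as single arrays were left out. Among the ratios in SC minus MC, quantile normalization gave -0.024 for TDH1 to TDH3, -0.089 for PDC6 to PDC1 and -0.53 for ADH2 to ADH1. Leaving out 1 array gave -0.13 to 0.17 for ADH2 to ADH1, -0.14 to 0.036 for ENO1 to ENO2 and -0.50 to 0.14 for ALD3 to ALD6, and 0 to 4 pairs past the threshold, with 4 without tH(GUG)G1 replicate 2. The cause was not tested.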
